A study of Homo sapiens with 4 samples.

Results

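NUMB and the genes of the Notch pathway around it were followed in T24 cells, an established line of human bladder carcinoma cells, with and without raised miR-146a-5p. The members were the 10 rows of the deposited gene table named NUMB, NUMBL, NOTCH1, NOTCH2, NOTCH3, JAG1, JAG2, LFNG, HES1 and HEY1, of 60623 genes in all. The study compared 2 groups, each with 2 libraries made from total RNA. One held T24 cells overexpressing miR-146a-5p, which the study's description calls transfection of a mimic, and the other T24 cells given a scramble control. No time after transfection and no dose is given in the labels, and all 4 libraries come from the 1 cell line. Nothing says whether the libraries of a group were separate cultures, so p-values here speak of these libraries' spread alone, and that spread may be technical.

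Notch is a receptor that a ligand on a neighbouring cell opens to a pair of cuts, the last by gamma-secretase, which frees its intracellular domain to enter the nucleus. There it joins the DNA-binding protein RBPJ and a Mastermind coactivator and turns on HES and HEY repressor genes. Fringe enzymes such as LFNG add sugars to Notch and so change which ligands it answers to. NUMB is an endocytic adaptor, first known in the fly as a cell-fate determinant, that lowers Notch signalling by helping to move the receptor off the cell surface. NUMB is also a known target of miR-146a in other cell types, and loss-of-function mutations of Notch genes are known in bladder cancer.

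The sequences that link miR-146a-5p to these genes are shown first. The mature miRNA (22 bases, from chr5:160485372-160485393 on the plus strand, RefSeq, GRCh38.p14) is given with its seed, bases 2 to 8, in capitals.
hsa-miR-146a-5p: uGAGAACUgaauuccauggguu
A 3' UTR site is called an 8-mer here where it reads AGTTCTCA, which pairs with the whole seed and has an A opposite the first base. A 7-mer reads either AGTTCTC or GTTCTCA. In the longest coding transcript of each gene (GENCODE 29, GRCh38), 4 of the 10 members held an 8-mer and JAG2 a 7-mer. Of the 12361 tested genes with an annotated 3' UTR, 20.9% held any such match and 4.76% an 8-mer. The sites below are written 5' to 3' on the transcript, with the match in capitals.
NUMB, chr14:73275948-73275955, minus strand: atattttaaatAGTTCTCAgatattaagaa
NOTCH2, chr1:119913415-119913422, minus strand: gtttgaatgacAGTTCTCAttccttctatg
JAG1, chr20:10637805-10637812, minus strand: aactcatctggAGTTCTCAaagacctgggg
LFNG, chr7:2528356-2528363, plus strand: gataagggaaaAGTTCTCAgggaattgaag
JAG2, chr14:105141936-105141942, minus strand: tcctgctgcgcAGTTCTCccatcctggga
The NUMB site starts at base 623 of a 3' UTR of 1360 bases and lies in the 3' UTR of 10 of 14 coding transcripts of the gene. The NOTCH2 site starts at base 1884 of 3753, and NOTCH2 holds a pair of further 7-mers, GTTCTCA, at bases 632 and 1346. All 3 NOTCH2 sites lie in the 3' UTR of 1 of its 3 coding transcripts. NUMBL, NOTCH1, NOTCH3, HES1 and HEY1 had no match in this transcript. A match of letters is a description and not evidence of binding.

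**Figure D1:**
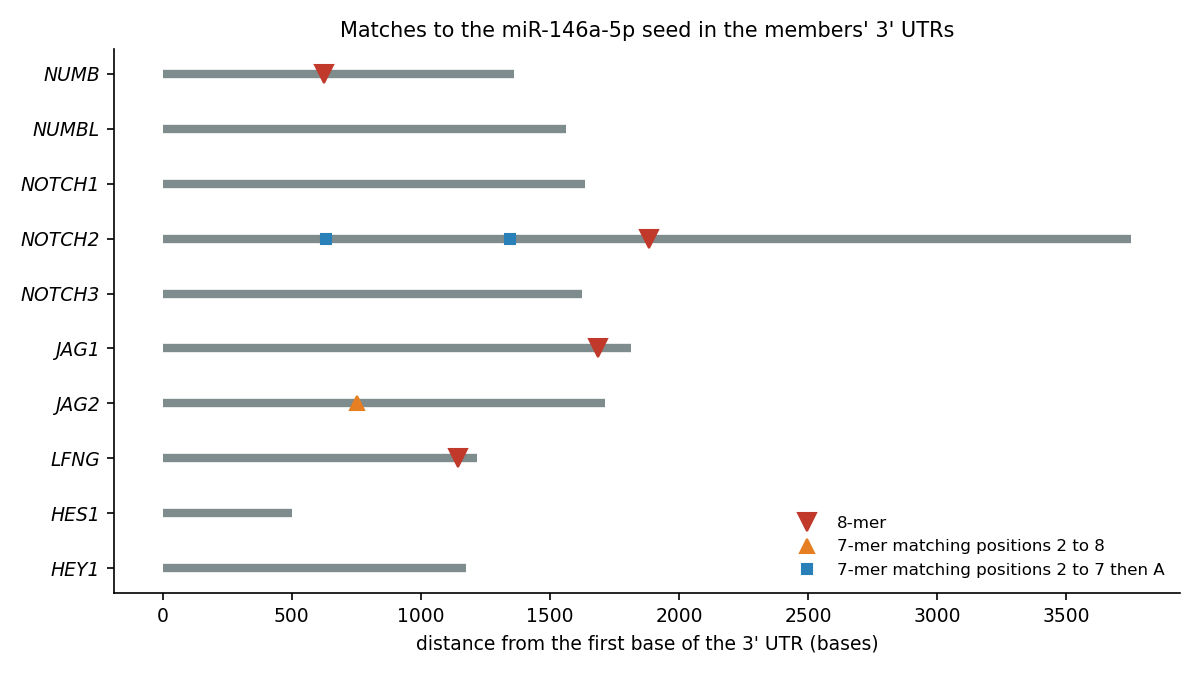
Matches to the miR-146a-5p seed along the 3' UTR of the longest coding transcript of each member (x axis, distance in bases from the first base of the 3' UTR; grey bars, the 3' UTR). NOTCH2 carries an 8-mer and 2 of the shorter matches, NUMB, JAG1 and LFNG an 8-mer each, JAG2 a 7-mer, and the other 5 members none.

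The libraries held between 20290017 and 22774060 estimated counts. IRAK1, a textbook target of this miRNA, had 109 and 109 CPM (the count scaled to the library's total after TMM normalization) in miR-146a-5p cells, against 499 and 716 CPM in scramble cells. Of the 17 urothelial markers checked, 8 passed the count filter and 3 (UPK3A, KRT5 and KRT13) had 0 counts in all libraries. UPK1A, UPK1B, UPK2, TP63, KRT20 and CDH1 did not pass it either. The 17 urothelial markers summed to between 3734 and 4114 CPM in miR-146a-5p libraries, against 3868 to 5732 CPM in scramble libraries. Fibroblast markers summed to between 5.79 and 6.75 CPM in miR-146a-5p libraries, against 3.35 to 4.0 CPM in scramble libraries. Leukocyte markers summed to between 0.881 and 1.49 CPM against 1.12 to 1.84 CPM, and endothelial markers to between 0.140 and 0.587 CPM against 0.134 to 0.307 CPM. The filter was passed by 2 of 7 fibroblast, 1 of 7 leukocyte and 0 of 5 endothelial markers. Scramble replicate 2 stood apart. It differed from scramble replicate 1 by more than 2-fold in 23.5% of tested genes, while the 2 miR-146a-5p libraries differed that much in 2.71%.

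No member was called different between the groups. Over 14810 genes tested with edgeR's quasi-likelihood test (Benjamini-Hochberg adjustment, threshold 0.05), 0% of genes passed and 549 had an unadjusted p under 0.05. DESeq2 on the same counts called 52 of 16044 genes, 0.324%, with 0 of the 9 members it gave an adjusted p among them. IRAK1, the textbook target, was called by DESeq2 (adjusted p = 5.03e-09) and not by edgeR (log2 fold change -2.48, adjusted p = 0.728). The edgeR test thus left even so large a difference uncalled, and an uncalled member is not shown to be unchanged. The authors' deposited table also lists 52 genes as significant, none of them a member. All members but NOTCH3, 9 of 10, passed edgeR's count filter. In JAG1, JAG2 and HES1, 3 of the 9, each miR-146a-5p value exceeded each scramble value, as in 18.0% of all tested genes. In NUMB and NOTCH2, 2 of the 9, each was under each scramble value, as in 17.9% of all tested genes. The median log2 fold change of the 9, miR-146a-5p over scramble, was -0.09, against -0.0014 for all tested genes.

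**Figure D2:**
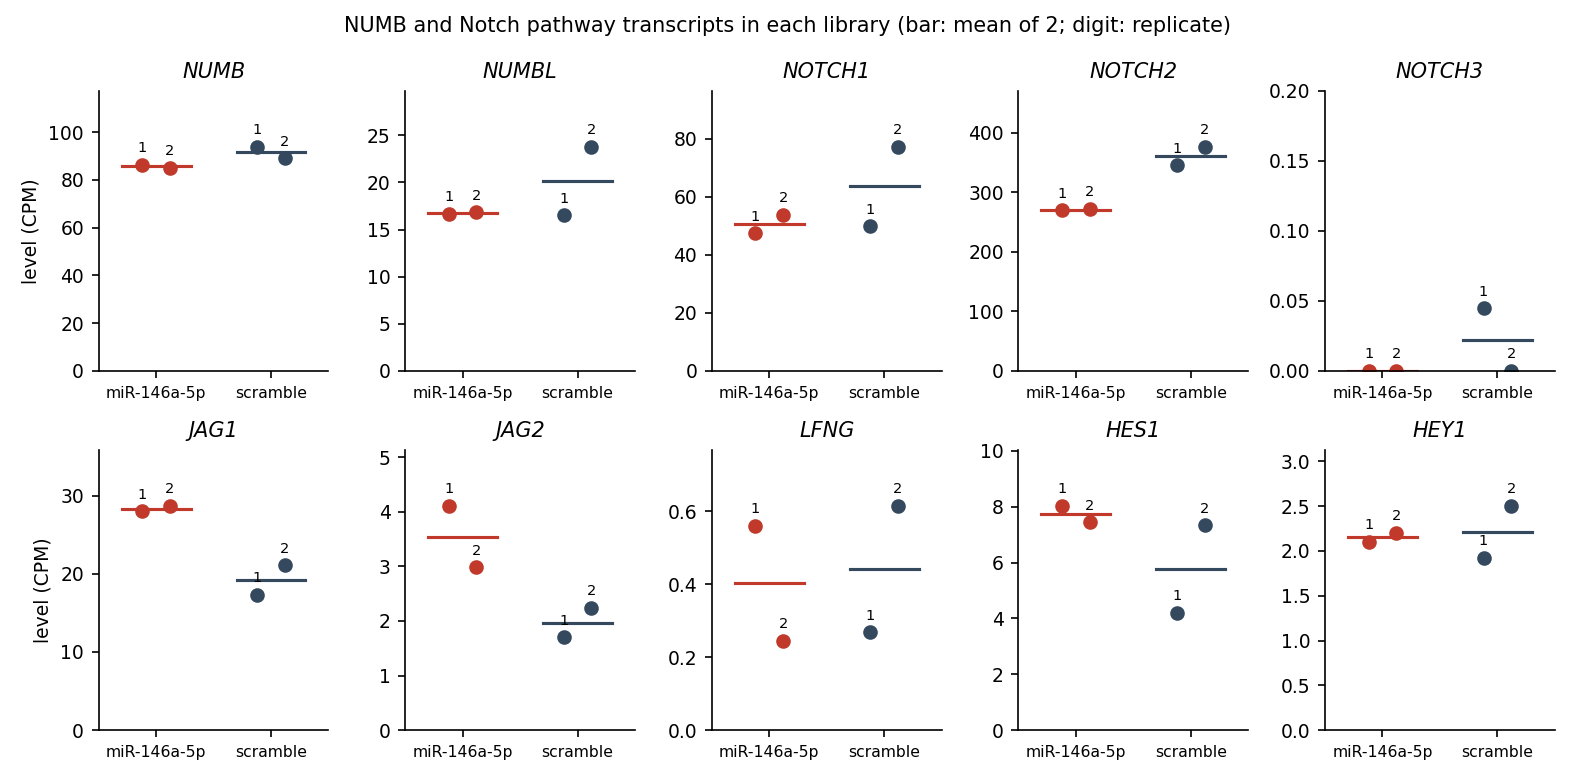
Level of each member in CPM in each of the 4 libraries (y axes start at 0; dots, libraries with their replicate number; bars, group means). The ligands JAG1 and JAG2 lie higher and the receptor NOTCH2 lower in both miR-146a-5p libraries, while NUMBL, NOTCH1, LFNG and HEY1 overlap between the groups.

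NUMB (ENSG00000133961, chr14:73275107-73458617) had 86.3 and 85.1 CPM in miR-146a-5p libraries, against 94.0 and 89.1 CPM in scramble libraries. Both miR-146a-5p values lay just below both scramble values, and the group means were 85.7 ± 0.845 and 91.5 ± 3.49 CPM (SD, n = 2 each). The log2 fold change was -0.09 ± 0.18 (SE), with a 95% interval from -0.58 to 0.39 (edgeR adjusted p = 0.970, DESeq2 adjusted p = 1.00). In TPM (abundance per transcript length, made by the authors) NUMB had 37.95 and 40.6 in miR-146a-5p libraries, against 42.8 and 34.3 in scramble libraries. The groups overlapped there and the ratio of means turned to 1.02, against 0.936 in CPM, so the direction of so small a difference depended on the unit. In CPM no left-out library and no other test or scaling tried turned its direction.

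NUMBL (ENSG00000105245, chr19:40665905-40690972) is the paralogue of NUMB, with overlapping functions in the developing nervous system of the mouse. It had 16.7 and 16.8 CPM in miR-146a-5p libraries, against 16.5 and 23.8 CPM in scramble libraries. Only scramble replicate 2 stood off, and the log2 fold change was -0.27 ± 0.27 (SE; edgeR adjusted p = 0.970). In TPM NUMBL was nearly level, with 9.56 and 9.61 in miR-146a-5p libraries against 9.04 and 9.61 in scramble libraries. The level of NUMB over that of NUMBL, in TPM, was 3.97 and 4.22 in miR-146a-5p libraries, against 4.73 and 3.57 in scramble libraries, so NUMB was the more abundant paralogue in every library and the ratios overlapped.

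Among the receptors, NOTCH2 (ENSG00000134250, chr1:119911553-120069626) was the abundant one. It had 269.6 and 272.5 CPM in miR-146a-5p libraries, against 345.5 and 376.9 CPM in scramble libraries. The groups did not overlap in CPM or in TPM, where the values were 31.1 and 30.8 against 39.2 and 38.9. The log2 fold change was -0.41 ± 0.15 (SE), with a 95% interval from -0.82 to -0.0056, an unadjusted p of 0.0480 and an adjusted p of 0.970 by edgeR. The genome holds near-identical partial copies of NOTCH2 that can share its reads. The copies NOTCH2NLA, NOTCH2NLB and NOTCH2NLC together had 584.9 and 534.0 estimated counts in miR-146a-5p libraries, against 544.1 and 785.3 in scramble libraries. NOTCH2 alone had 5772 and 5568 counts in miR-146a-5p libraries, against 7729 and 8583 in scramble libraries. With the copies added, the sum was 296.9 and 298.6 CPM in miR-146a-5p libraries, against 369.8 and 411.4 CPM in scramble libraries, again without overlap.

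NOTCH1 (ENSG00000148400, chr9:136494433-136545786), which has no seed match, had 47.4 and 53.8 CPM in miR-146a-5p libraries, against 49.9 and 77.2 CPM in scramble libraries. The groups overlapped, and scramble replicate 2 held the highest value. Its log2 fold change was -0.33 ± 0.29 (SE; edgeR adjusted p = 0.970). NOTCH3 (ENSG00000074181), the receptor of vascular smooth muscle, had 0 and 0 counts in miR-146a-5p libraries, against 1 and 0 in scramble libraries. It was not detectable at this depth, where 3 counts, the limit that a count of 0 allows, are at most 0.148 CPM (counting error only). NOTCH4, the fourth receptor and not a member, had 4 and 10 counts in miR-146a-5p libraries, against 6 and 5 in scramble libraries. NOTCH2 made up 83.0% and 80.5% of the summed TPM of the 4 receptors in miR-146a-5p libraries, against 84.5% and 80.7% in scramble libraries.

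Both Jagged ligands had higher values with miR-146a-5p, opposite to NOTCH2, and neither passed the test. JAG1 (ENSG00000101384, chr20:10637684-10673999), a Notch ligand of epithelia and endothelium, had 28.0 and 28.7 CPM in miR-146a-5p libraries, against 17.3 and 21.1 CPM in scramble libraries. Both miR-146a-5p values lay above both scramble values, and in TPM they were 6.61 and 6.28 against 4.03 and 4.66. The log2 fold change was 0.56 ± 0.22 (SE), with a 95% interval from -0.026 to 1.15 (edgeR adjusted p = 0.970, DESeq2 adjusted p = 1.00). JAG1 lay higher with miR-146a-5p and its 3' UTR holds an 8-mer near the end, at base 1686 of 1814.

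JAG2 (ENSG00000184916, chr14:105140981-105168824), the second Jagged ligand, was scarce, with 87.6 and 61.0 estimated counts in miR-146a-5p libraries, against 38.0 and 51.1 in scramble libraries. In CPM that was 4.11 and 2.99 against 1.70 and 2.24, and the groups did not overlap. The log2 fold change was 0.85 ± 0.34 (SE), with a 95% interval from -0.077 to 1.77 (edgeR adjusted p = 0.970). In TPM the values were 2.58 and 0.86 in miR-146a-5p libraries, against 0.39 and 0.58 in scramble libraries. The ratio of means was 3.55 in TPM against 1.80 in CPM, and without miR-146a-5p replicate 1 the ratio in TPM was 1.77, and without miR-146a-5p replicate 2 it was 5.32. The authors deposited a single length per gene, 5773 for JAG2. Between the miR-146a-5p libraries JAG2 differed more in TPM than in CPM, so its TPM did not follow from counts and that length alone. The lengths that TPM rests on are not given in the sources used, which also touches the sums, the ratios and the order of levels in TPM. The gene AL512356.1, whose exons overlap JAG2 by 469 bases on the same strand and could share its reads, had between 0 and 1.86 estimated counts. The Delta ligands DLL1, DLL3 and DLL4 had at most 4 counts in any library, so the Jagged pair carried the ligand signal. Summed over the 5 ligands, TPM was 9.24 and 7.25 in miR-146a-5p libraries, against 4.62 and 5.31 in scramble libraries. Without JAG2 the sum was 6.66 and 6.39 in miR-146a-5p libraries, against 4.23 and 4.73 in scramble libraries. The ratio of JAG1 to NOTCH2 in TPM, chosen after the values were seen, was 0.213 and 0.204 in miR-146a-5p libraries, against 0.103 and 0.120 in scramble libraries.

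LFNG (ENSG00000106003, chr7:2512529-2529177) was close to the detection limit. It had 12 and 5 counts in miR-146a-5p libraries, against 6 and 14 in scramble libraries, and the groups overlapped fully. Its log2 fold change of -0.13 ± 0.72 (SE) had a 95% interval from -2.09 to 1.84, so even a large change would not have been detectable at this depth. The other fringes differed in level. RFNG had 26.2 and 23.1 CPM in miR-146a-5p libraries, against 24.6 and 34.3 CPM in scramble libraries, and MFNG had at most 5 counts in any library.

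The target genes report on the output of the pathway. HES1 (ENSG00000114315, chr3:194136145-194138732), a repressor that Notch induces in many tissues, had 8.03 and 7.44 CPM in miR-146a-5p libraries, against 4.20 and 7.33 CPM in scramble libraries. The groups were parted by a narrow margin, since scramble replicate 2 lay just under the lower miR-146a-5p library. The log2 fold change was 0.42 ± 0.35 (SE), with a 95% interval from -0.54 to 1.38 (edgeR adjusted p = 0.970). HEY1 (ENSG00000164683) had 2.10 and 2.20 CPM in miR-146a-5p libraries, against 1.92 and 2.50 CPM in scramble libraries, with a log2 fold change of -0.04 ± 0.31 (SE). Its groups overlapped.

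Promoters of the target genes were searched for GTGGGAA, a core letter string bound by RBPJ, on both strands of the window from 250 bases before to 50 bases after each start (RefSeq, GRCh38.p14). No other motif was searched. HEY1 had no window, so its promoter was left out of the search. Of the target genes with a window, 5 of 8 held it (HES1, HES4, HES5, HEY2 and HEYL), against 7.62% of the 27305 genes with a window. The list is made of known Notch targets, so a higher share could come from that choice and is no result of these libraries. The HES1 match begins 85 bases before the start, in the stretch chr3:194136043-194136089 on the plus strand, shown because HES1 is the member that holds it. The match is in capitals.
HES1 promoter: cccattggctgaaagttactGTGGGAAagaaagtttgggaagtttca
Of these 5 genes only HES1 and HES4 passed the count filter, and HES4 had 7.19 and 6.70 CPM in miR-146a-5p libraries, against 3.44 and 10.9 CPM in scramble libraries. HES4 therefore lay between its scramble values, and HES5 and HEYL had 0 counts in every library. NRARP, a Notch-induced feedback inhibitor with no match in the window, had 1.17 and 0.881 CPM in miR-146a-5p libraries, against 1.21 and 1.58 CPM in scramble libraries. Of the targets with counts to compare, HES1 lay higher by a narrow margin, NRARP lay lower at a low level, and HEY1 and HES4 overlapped between the groups. None passed, so no direction can be given for the targets as a set.

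Levels were set side by side per transcript length, in TPM. In miR-146a-5p libraries the order of mean TPM was NUMB (39.3), NOTCH2 (30.95), NUMBL (9.59), HES1 (7.28), NOTCH1 (6.69), JAG1 (6.45), JAG2 (1.72), HEY1 (1.44), LFNG (0.30) and NOTCH3 (0). In scramble libraries it was NOTCH2 (39.0), NUMB (38.5), NUMBL (9.33), NOTCH1 (8.04), HES1 (5.14), JAG1 (4.35), HEY1 (1.60), JAG2 (0.485), LFNG (0.33) and NOTCH3 (0.005). The ranges of HES1 and NOTCH1, of NOTCH1 and JAG1 and of JAG2 and HEY1 overlapped in miR-146a-5p libraries, so those neighbours were not told apart. In scramble libraries the overlapping neighbours were NOTCH2 and NUMB, NUMBL and NOTCH1, HES1 and JAG1, and JAG2 and LFNG. NUMB and NOTCH2 thus stood first in both groups. In these TPM values NUMB lay above NOTCH2 beyond the spread in miR-146a-5p libraries alone, a difference between groups that was not itself tested. The deposited length was 3588 for NUMB and 11425 for NOTCH2, and whether TPM rests on these is not given. The order was not recomputed with them, so which of the pair was the more abundant is not settled.

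Because the scramble libraries differed from each other, each was also used alone, and its spread was then taken from that of the other group. These comparisons share the miR-146a-5p libraries and are not independent, and the share of all genes called in both is not given here. The member calls below are those of edgeR. For DESeq2 only log2 fold changes are given, first against scramble replicate 1 and then against scramble replicate 2. They were -0.35 and -0.48 for NOTCH2, 0.71 and 0.42 for JAG1, and 0.023 and -0.62 for NOTCH1. DESeq2 gave some scarce members no adjusted p in these fits. Against scramble replicate 1 alone edgeR called 21.7% of genes (10.1% higher and 11.7% lower), and against scramble replicate 2 alone 54.9% (28.5% higher and 26.4% lower). Of 9 members tested each time, 3 were called higher and 1 lower against replicate 1, and 1 higher and 3 lower against replicate 2. JAG1 was called in both, with log2 fold changes of 0.72 ± 0.13 (adjusted p = 1.75e-06) and 0.43 ± 0.13 (SE; adjusted p = 0.00176). NOTCH2 was called in both as well, at -0.34 ± 0.08 (adjusted p = 6.88e-04) and -0.47 ± 0.08 (SE; adjusted p = 3.24e-08). NUMB was called in neither, at -0.12 ± 0.09 (adjusted p = 0.365) and -0.05 ± 0.09 (SE; adjusted p = 0.629).

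The other calls belonged to 1 scramble library each. JAG2 (1.08 ± 0.36, adjusted p = 0.0184) and HES1 (0.89 ± 0.23, adjusted p = 0.00102) were called higher against replicate 1, and had log2 fold changes of 0.67 ± 0.34 (adjusted p = 0.0829) and 0.08 ± 0.20 (SE; adjusted p = 0.768) against replicate 2. NOTCH1 (-0.61 ± 0.09, adjusted p = 4.24e-10) and NUMBL (-0.50 ± 0.13, adjusted p = 4.44e-04) were called lower against replicate 2. Against replicate 1 they had log2 fold changes of 0.033 ± 0.10 and 0.032 ± 0.14 (SE), with adjusted p of 0.863 and 0.912. With 54.9% of all genes called against replicate 2 alone, such a call is common in this table.

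**Figure D3:**
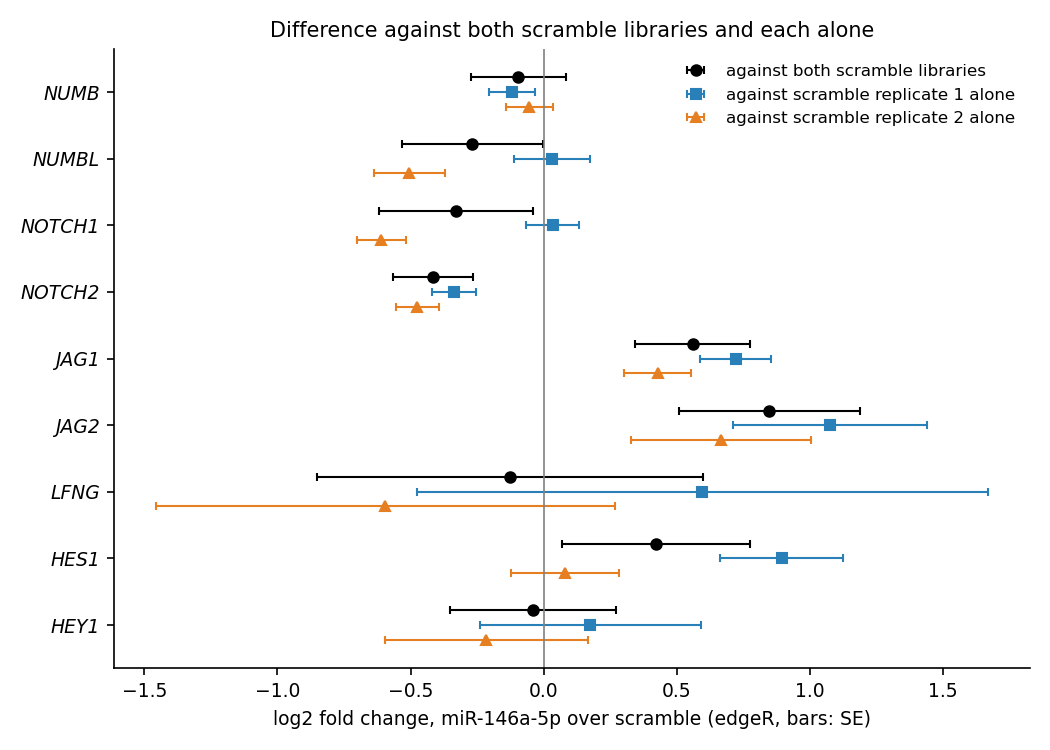
Log2 fold change of the 9 tested members, miR-146a-5p over scramble (x axis, edgeR, bars are SE), with both scramble libraries, with the first of them only and with the second of them only. JAG1, JAG2, HES1 and NOTCH2 keep their side in all 3, NUMB stays near 0, and NOTCH1, NUMBL, LFNG and HEY1 change side with the scramble library used.

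The split between the scramble libraries followed transcript GC content. Across 5 bins with equal numbers of tested genes, ordered by GC content, the median of scramble replicate 2 minus replicate 1 (log2 CPM) was -1.55 in the lowest and 0.52 in the highest, while the same difference between the miR-146a-5p libraries lay between -0.059 and 0.084. NUMBL, NOTCH1, JAG2 and LFNG belong to the highest bin, and their differences between the scramble libraries were 0.52, 0.63, 0.38 and 0.97. NOTCH2, JAG1, HES1 and HEY1 lie in the middle bin, where the median was 0.15 and their own differences were 0.13, 0.28, 0.79 and 0.37. NUMB, with 44.2% GC, lies in the bin below, where the median was -0.40, and NUMB differed by -0.078. With offsets that remove a trend with GC content and length, the log2 fold changes were -0.33 for NUMB, -0.13 for NUMBL, -0.25 for NOTCH1, -0.47 for NOTCH2, 0.55 for JAG1, 0.97 for JAG2 and 0.50 for HES1. None passed there, and the lowest adjusted p among the members was 0.359, for JAG1. Of these values that of NUMB moved furthest from its value without offsets, -0.09.

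**Figure D4:**
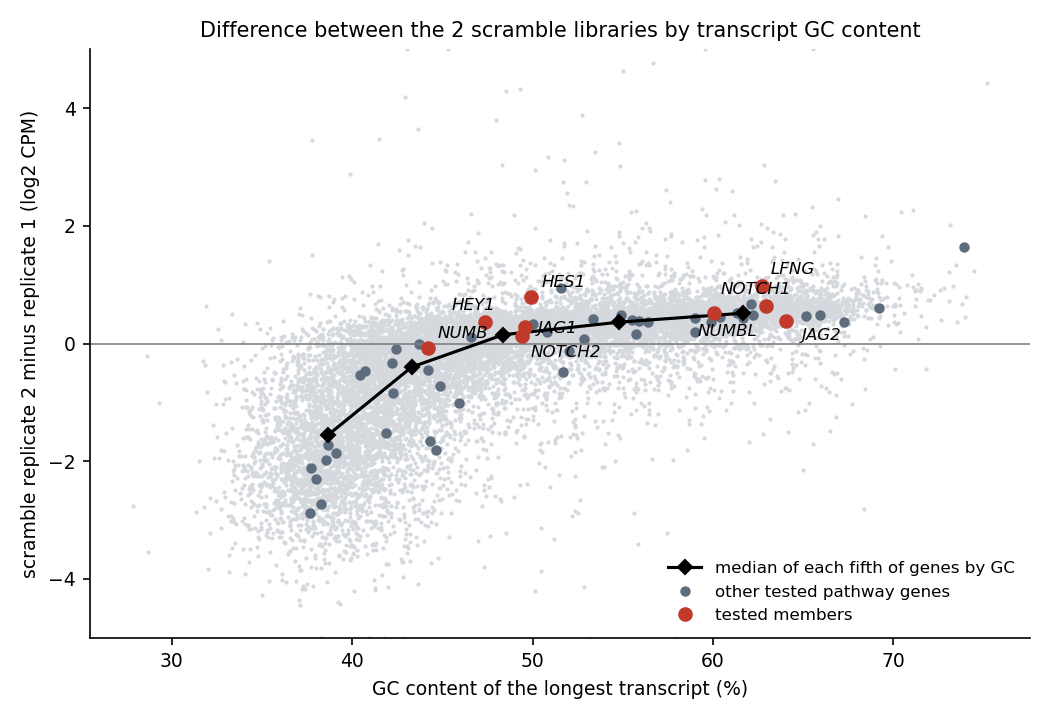
Scramble replicate 2 minus replicate 1 (y axis, log2 CPM) against the GC content of the longest transcript (x axis, percent) for all tested genes with a transcript in GENCODE 29 (small grey dots; 10 genes beyond 5 are drawn at the limit). Diamonds are the medians of the 5 bins, from -1.55 to 0.52; NUMBL, NOTCH1, JAG2 and LFNG sit at the GC-rich end.

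Beyond the members, 68 pathway genes in 8 lists by role were read from the same fit, of which 55 were tested. None was called by edgeR or by DESeq2. Of the 55, 2 had an unadjusted edgeR p under 0.05, against 549 of all 14810 tested genes. Groups did not overlap with miR-146a-5p higher in 11 of the 55 and with it lower in 9, against 18.0% and 17.9% of all tested genes. The median log2 fold change was -0.062. Among the proteases that cut Notch, all 9 were tested and the list median was -0.062, with 4 positive and 5 negative values. FURIN, which cuts the receptor on its way to the surface, had 91.1 and 84.6 CPM in miR-146a-5p libraries, against 89.1 and 121.1 CPM in scramble libraries. ADAM10, the sheddase that makes the ligand-dependent cut, had 104.9 and 111.1 CPM in miR-146a-5p libraries, against 141.7 and 21.3 CPM in scramble libraries, so the scramble libraries lay on either side of it.

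Ubiquitin ligases and turnover genes had 9 of 10 members tested and a median of 0.21. DTX4, a Deltex ligase that modifies Notch, had the smallest p of the list, with 35 and 26 counts in miR-146a-5p libraries, against 12 and 17 in scramble libraries. Its log2 fold change was 1.17 ± 0.41 (SE; unadjusted p = 0.0441, adjusted p = 0.970 by edgeR). NEDD4 had 110.8 and 112.8 CPM in miR-146a-5p libraries, against 93.4 and 21.5 CPM in scramble libraries. MIB1, which ubiquitinates ligands so that they can pull on Notch, had 72.5 and 75.3 CPM in miR-146a-5p libraries, against 102.9 and 13.9 CPM in scramble libraries. NEDD4 and MIB1 show the reach of scramble replicate 2 in GC-poor genes. All 9 tested pathway genes of the lowest GC bin were lower in that library than in scramble replicate 1, and for 5 of them the sign of the difference to miR-146a-5p changed with the scramble library used.

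In the list of the NUMB family with its partners and endocytic adaptors, 11 of 12 genes were tested, with 3 positive and 8 negative values and a median of -0.095. The AP-2 subunit genes AP2A1 (91.5 and 90.0 CPM in miR-146a-5p libraries, against 90.2 and 143.8 CPM in scramble libraries) and AP2A2 (40.6 and 44.3 against 44.7 and 60.0 CPM) had its smallest p among genes that are not members. For both, scramble replicate 2 was the high library. LNX1, a ubiquitin ligase that acts on NUMB in the mouse, did not pass edgeR's count filter with all 4 libraries. It had 28.8 estimated counts in scramble replicate 1 and at most 5.89 in the other libraries. By DESeq2 its log2 fold change was -1.43 ± 1.48 (SE), and it was not called. The glycosylation list had 4 tested genes and a median of -0.19. Its gene with the smallest p was POFUT1, which adds the fucose that fringes extend, at 201.6 and 189.9 CPM in miR-146a-5p libraries, against 216.3 and 272.1 CPM in scramble libraries.

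All 14 genes of the nuclear complex and its corepressors were tested, with a median of -0.071. MAML3, a Mastermind coactivator, had 5.09 and 5.19 CPM in miR-146a-5p libraries, against 7.60 and 7.99 CPM in scramble libraries. It lay below both scramble values, with a log2 fold change of -0.60 ± 0.23 (SE; unadjusted p = 0.0528, adjusted p = 0.970 by edgeR). KAT2A, a histone acetyltransferase, had 56.5 and 58.2 CPM in miR-146a-5p libraries, against 66.6 and 86.3 CPM in scramble libraries. RBPJ, the DNA-binding partner of Notch, had 92.0 and 103.3 CPM in miR-146a-5p libraries, against 126.3 and 25.5 CPM in scramble libraries. Its log2 fold change was -0.36 ± 0.08 against scramble replicate 1 alone and 1.94 ± 0.10 (SE) against scramble replicate 2 alone, so no direction can be given.

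**Figure D5:**
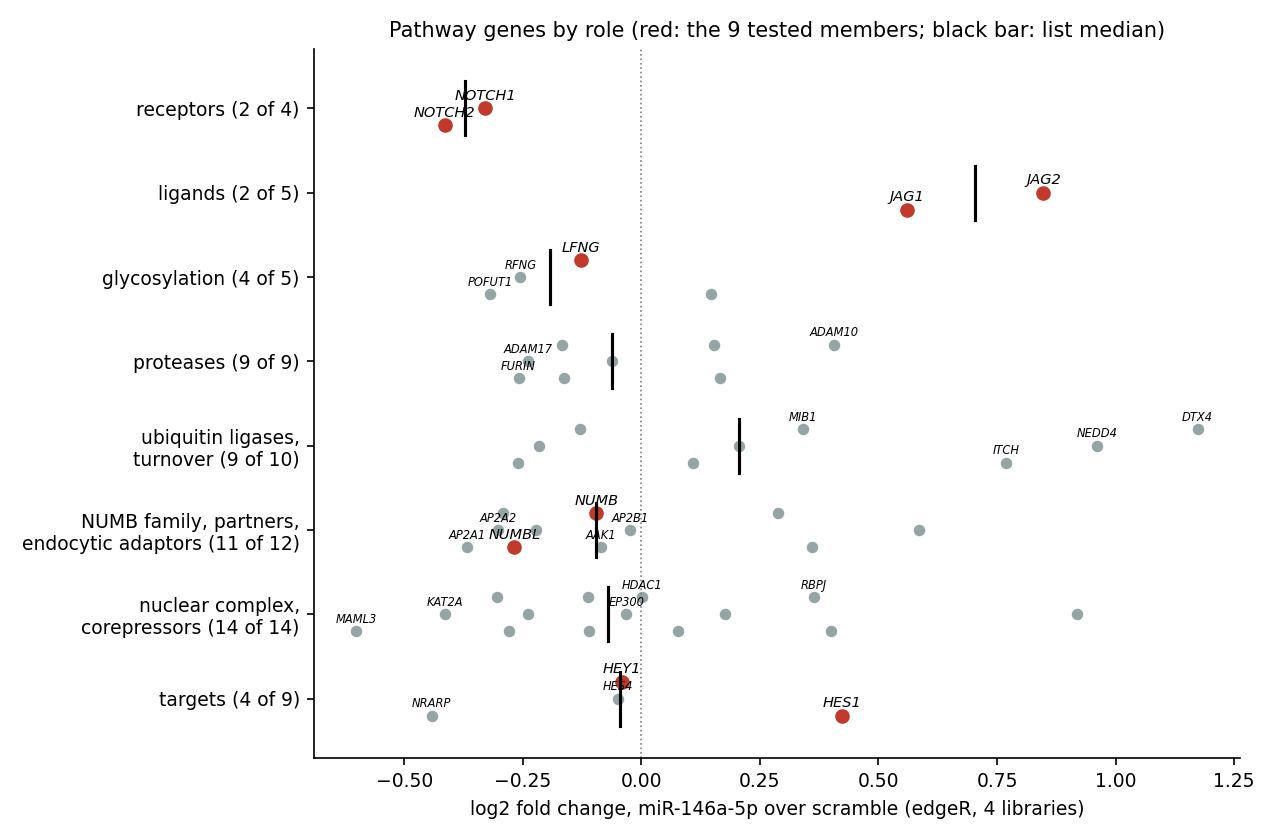
Log2 fold change, miR-146a-5p over scramble (x axis, edgeR, 4 libraries), of 54 of the 55 tested pathway genes in 8 lists by role (y axis, tested of listed genes). Red dots are the 9 tested members, grey dots other genes (named where the text names them) and black bars the list medians, from -0.37 for the receptors to 0.70 for the ligands; no gene passed the threshold.

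Of the 68 pathway genes, 17 held a seed match (25.0%) and 8 an 8-mer. The 16 of them that were tested had a median log2 fold change of -0.055, against -0.062 for the 39 tested pathway genes without a match. In 4 of the 16 the groups did not overlap with miR-146a-5p higher, and in 4 with it lower, against 16.0% and 21.5% of the 2581 tested genes with a match. Besides the 4 members, 8-mers were found in AAK1, a kinase that phosphorylates NUMB and AP-2, in ADAM17, ITCH and HEY2. ADAM17, a sheddase with a pair of 8-mers, had 38.6 and 40.4 CPM in miR-146a-5p libraries, against 59.7 and 33.5 CPM in scramble libraries. ITCH, a ubiquitin ligase of Notch in the mouse, had 241.1 and 242.0 CPM in miR-146a-5p libraries, against 222.1 and 61.4 CPM in scramble libraries. AAK1 had 47.4 and 52.1 CPM in miR-146a-5p libraries, against 59.0 and 46.7 CPM in scramble libraries, and HEY2 had at most 3 counts in any library. ADAM17 and AAK1 overlapped between the groups, ITCH lay higher in both miR-146a-5p libraries, and HEY2 was too scarce to compare.

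Finally, the pathway genes with the smallest distance to NUMB over the 4 libraries were found by the root mean square difference in log2 CPM, each gene centred on its own mean, among 54 tested genes. They were EP300, the acetyltransferase coactivator (0.071), AP2B1, the beta subunit of AP-2 (0.077), and HDAC1, a histone deacetylase (0.099). EP300 had 103.2 and 114.7 CPM in miR-146a-5p libraries, against 116.2 and 106.5 CPM in scramble libraries, and HDAC1 had 138.7 and 126.8 CPM against 126.2 and 139.2 CPM. In both the groups overlapped. Because NUMB varied little, this measure picks genes that varied little, and not genes that moved with it: HDAC1 was lowest in scramble replicate 1, where NUMB was highest.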

How the data were processed

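Per the submitters' processing notes, cutadapt 1.9.1, HISAT2 2.0.1, HTSeq 0.6.1, DESeq2 and the build hg19 were used, with no role or order given. Which annotation release was counted is not given in the sources used. The authors deposited an estimated count per gene and library, and 34.3% of those of genes above 0 in every library were fractional (over 1e-06 from a whole number). The authors also deposited a length per gene, TPM, a fold (ratio of miR-146a-5p over scramble), its log2 value and a p-value, adjusted and not. The library kit named in the labels does not mark strand.

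Estimated counts were rounded. Genes passed edgeR's filterByExpr (minimum count 10, total 15). The main test was edgeR 4.0.16 (R 4.3.3), quasi-likelihood, TMM, group as the only term, two-sided. SEs come from the F statistic. DESeq2 1.42.0 (default filtering, target 0.1), RLE factors, no filter, each library left out, a replicate block and GC and length offsets (splines with 4 degrees of freedom on GENCODE 29 transcripts, available for 99.1% of tested genes) were alternatives. Log2 CPM used a prior count of 2. Scripts were tested on simulated data. The 2 libraries of a group differed by more than sampling noise (chi-square per degree of freedom 6.88 for miR-146a-5p and 175 for scramble). GENCODE and RefSeq coordinates (GRCh38) are 1-based, and none is in the authors' build.

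The members and lists were chosen with earlier results of these data known. All members were named, and from each list 2 other genes with the smallest edgeR p (1 of them is not reported here), the carriers of an 8-mer and the 3 genes most like NUMB; ADAM10, MIB1, RBPJ, LNX1, NOTCH4 and the genes at the floor were added after their values were seen.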

Additional observations from a re-analysis of the deposited data

How the results depend on the processing

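The number of called genes depended on the test and the libraries. edgeR called 0 genes with 4 libraries, DESeq2 called 52, and the replicate block called 5. With each library left out in turn edgeR called between 8 and 8421 genes and DESeq2 between 2 and 5349 (1107 without scramble replicate 2). Among the 10 members, leaving out a library gave between 0 and 4 calls by edgeR and between 0 and 2 by DESeq2, all of them with a scramble library left out. Among the 68 pathway genes it gave between 0 and 36 by edgeR and between 0 and 26 by DESeq2 (6 without scramble replicate 2). Of the 68, edgeR tested 57 without scramble replicate 2 and 56 without scramble replicate 1. Many of all genes were called by edgeR in the same fits, at the shares given above. Whether the pathway genes were called more often than all genes was not tested. RLE factors, no filter and GC and length offsets called 0 genes. NUMB kept its sign and stayed uncalled under each alternative, between -0.33 with GC and length offsets and -0.05. With a library left out of the edgeR fit, log2 fold changes spanned -0.50 to 0.032 for NUMBL, -0.61 to 0.033 for NOTCH1, -0.82 to 0.60 for LFNG and -0.22 to 0.18 for HEY1, so their signs turned. In DESeq2 without scramble replicate 2 they were 0.022, 0.023, 0.59 and 0.17, and LFNG was 0.33 without miR-146a-5p replicate 2. LFNG also turned with GC and length offsets (0.062) and with these and the replicate block (0.018). JAG1, JAG2, NOTCH2 and HES1 kept their signs. The ratio of mean JAG2 TPM, recomputed with each library left out after the data were seen, lay between 1.77 and 5.32 (without miR-146a-5p replicates 1 and 2), against 3.55 with all 4. The cause of the dependence on scramble libraries was not tested. Same-numbered libraries deviated from their group means with a correlation of -0.15 across genes. With 2 libraries per group, this cannot show whether same-numbered libraries were prepared together. The main test did not use the numbers. With the numbers crossed between groups, tried after the data were seen, the replicate block called 0 genes. Depth limits LFNG, NOTCH3 and the Delta ligands.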
